A study of Mus musculus with 96 samples.

Results

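The endocytic receptor complex of the extra-embryonic endoderm is made of megalin (Lrp2), cubilin (Cubn), amnionless (Amn) and the adaptor Dab2, and this account follows transcription factor binding around those 4 genes. Its members are the GATA6 binding regions whose summit lies in a window around each gene, on mm10 coordinates in Mb: 6.19 to 6.55 on chromosome 15 for Dab2, 69.32 to 69.69 and 13.17 to 13.60 on chromosome 2 for Lrp2 and Cubn, and 111.17 to 111.38 on chromosome 12 for Amn. The windows held 60 of the 42403 regions of the table, with 15 at Dab2, 24 at Lrp2, 17 at Cubn and 4 at Amn. Binding of GATA6, SOX17, OCT4, SOX2 and ESRRB was measured by ChIP-seq, which counts the DNA fragments that an antibody pulls down together with a factor, next to input chromatin that saw no antibody. The induced cells were KH2 mouse embryonic stem (ES) cells of C57BL/6 x 129/Sv background with a Gata6 cassette under doxycycline (Dox) control, maintained on fibroblast feeders. They were collected untreated (day 0) and after 8 h, 16 h, 1, 2 and 4 days of Dox at 1 µg/mL. Primitive endoderm (PrE) derivatives were represented by X10 XEN cells, an untreated line of CD1 strain, for which no ESRRB values were analysed here. In a separate experiment on 1 clone of the inducible cells, Oct4 siRNA or control siRNA was given together with 1 µg/mL Dox, and GATA6 and SOX17 were profiled at day 2. The loss of Oct4 itself was not measured in these files. Induced cells and XEN cells differ in strain and culture, so that cell type and strain cannot be told apart in comparisons between them.

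Megalin is a giant endocytic receptor that spans the membrane, and cubilin is a peripheral membrane protein that binds many ligands but has no transmembrane segment of its own. Amnionless anchors cubilin in the membrane and is needed for its transport to the cell surface. Dab2 binds the cytoplasmic tail of megalin and links the complex to clathrin and its adaptor complex. In the visceral endoderm, a derivative of the PrE, this machinery takes up maternal proteins for the embryo. GATA6 and SOX17 are regulators of the PrE, while OCT4, SOX2 and ESRRB belong to the network of pluripotent cells.

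Each value below is the number of reads on a region scaled to the size of the library (RPM, reads per 1 M), for which the authors pooled the libraries of a condition into 1 figure. It is not scaled to the width of the region. For most conditions the RPM values could be split back into the whole reads of 2 libraries, so that both are given where needed. The lowest recovered count was 1 read, and the regions at 0 in any column used numbered 0. Whether 1 read had been added to each count is not known. Library depth ran from 5.42 to 69.4 M reads with a median of 15.3 M, while GATA6 at day 0 rested on 1 library of 6.12 M reads and OCT4 in XEN cells on 1 of 7.5 M. A change is called past a fold of 2 on the log2(RPM + pseudocount) scale, which carries no replicate check and understates the change of low values. Beside it stands edgeR's quasi-likelihood test on the recovered reads, with p-values adjusted over all regions. GATA6 and SOX2 at day 4 and XEN input had 3 labelled libraries but 2 recovered depths, so that 1 of their depths may not be that of a single library. ESRRB at 8 h and SOX17 at 16 h had 2 labelled libraries but 1 recovered depth each, of 9.1 and 20 M reads. The study's methods give separate chromatin preparations for most conditions, without saying whether these came from separate cultures, and the p-values measure the spread between libraries. Regions are named by the distance of their summit from the start of the principal transcript of the gene, in the direction of transcription. The windows also hold other genes, and the data give no link from a region to the gene it acts on.

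Stretches of sequence around the best motif matches of the leading regions are printed on the + strand of GRCm38, the assembly that mm10 names, and leave out other matches that the regions hold. Capitals mark the best match of a motif near the summit as the authors' scan gave it, with lengths of 13 bases for GATA6, 9 for SOX17 and 15 for the composite OCT:SOX motif. In 4 regions the stretch around the best GATA6 match is shown, because GATA6 took different courses at them after 8 h. Lrp2 +3.1 kb also held 5 SOX17 and 5 OCT:SOX matches, and Dab2 -142.2 kb 2 and 3.
Dab2 -142.2 kb, chr15:6244407-6244435: ggtcacggAAGAGATAAGATAtgcctaca
Dab2 +0.2 kb, chr15:6386798-6386826: ctgattagAACCATATCTCTAccgggagt
Lrp2 +3.1 kb, chr2:69582979-69583007: ctaaaaaaAGGAGATAAACTCggagaaac
Amn -2.9 kb, chr12:111268156-111268184: tgtgggtgACCAGATAACAGGacctgccc

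In 3 further regions the best matches of several motifs lay close enough to the summit to be shown together. In the strongest Cubn region the GATA6 match and then the SOX17 match lay at offsets of -15 and 3 bases from the summit. At Lrp2 -21.8 kb the SOX17 match came first and the GATA6 match second, at -104 and 18 bases. In the strongest Dab2 region the order was GATA6, OCT:SOX and SOX17, at -145, -53 and 82 bases.
Cubn -4.5 kb, chr2:13496254-13496298: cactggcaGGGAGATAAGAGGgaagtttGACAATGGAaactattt
Lrp2 -21.8 kb, chr2:69607780-69607928: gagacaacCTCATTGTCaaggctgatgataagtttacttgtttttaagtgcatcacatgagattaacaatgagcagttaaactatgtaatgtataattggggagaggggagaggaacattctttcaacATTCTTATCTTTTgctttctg
Dab2 +86.9 kb, chr15:6473309-6473562: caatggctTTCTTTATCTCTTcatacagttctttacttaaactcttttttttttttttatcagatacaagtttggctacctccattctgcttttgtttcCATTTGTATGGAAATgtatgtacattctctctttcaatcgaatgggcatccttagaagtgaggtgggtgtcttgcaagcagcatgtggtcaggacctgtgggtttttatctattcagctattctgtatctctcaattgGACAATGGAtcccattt

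For 2 regions that gained GATA6 late, the stretch around the best SOX17 match is shown. In the authors' scan Dab2 -126.4 kb had no GATA6 match, and Lrp2 +45.4 kb had 2, the best of them outside the stretch printed. The SOX17 match of Lrp2 +45.4 kb lay 7 bases from the summit.
Dab2 -126.4 kb, chr15:6260109-6260133: catcaatcTCTATTGTCtcggtgat
Lrp2 +45.4 kb, chr2:69540705-69540729: agcaaacgGCTATTGTCtccatcta

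Over the 60 regions, 53 (88.3%) had a GATA6 match against 89.7% of the whole table, 49 (81.7%) had a SOX17 match against 69.2% and 41 (68.3%) an OCT:SOX match against 71.5%. The member regions were wider, with a median of 774 bp against 525 bp, and the part of width in these shares was not tested. Of the 60, 36 lay in introns, 20 between genes, 3 in UTR exons and 1 in a coding exon. At Dab2, 5 regions lay in Dab2 itself, 6 in the neighbouring C9, which encodes a complement component, and 4 between genes. At Lrp2, 13 of the 24 lay in Lrp2 and 2 in Dhrs9, and at Cubn, 8 of the 17 lay in Cubn and 4 in Trdmt1. None of the Amn regions lay in Amn. In the authors' classes, 48 of the 60 (80%) were closed in undifferentiated cells, against 61.3% of the table, and 2 were accessible. The authors' GATA6 clusters put 30 regions (50%) in the late class against 33.6% of the table, 21 (35%) in the early class and 9 (15%) in the transient class against 38.4%. These clusters were made from the GATA6 values themselves and are a description.

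**Figure D1:**
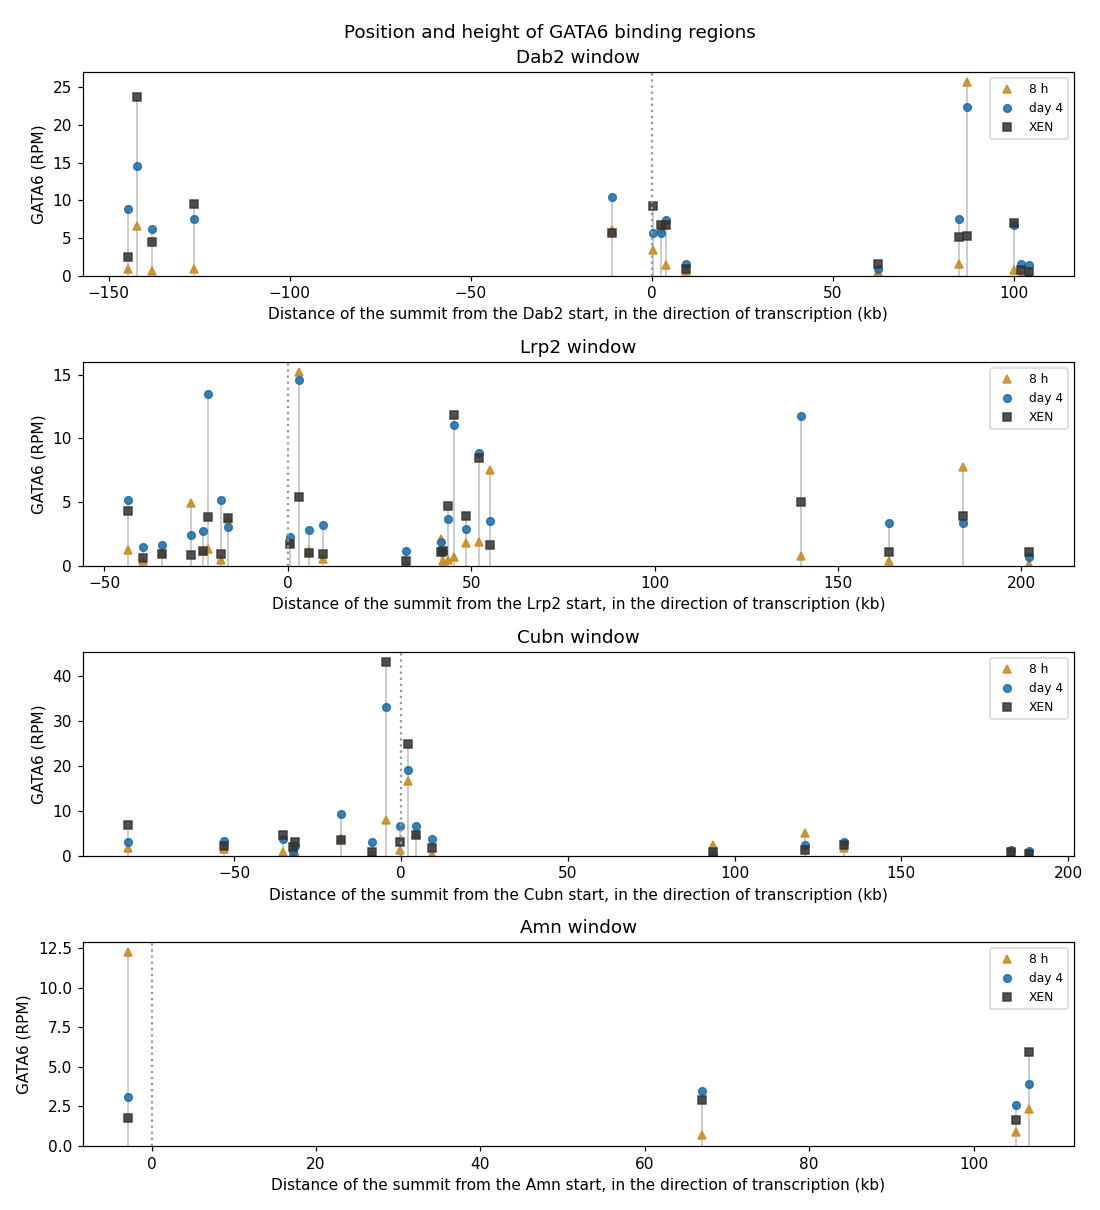
GATA6 RPM at 8 h, day 4 and in XEN cells for the 60 regions of the 4 windows, placed by the distance of the summit from the gene start in kb (dotted line), in the direction of transcription. Binding was spread over many regions at Dab2 and Lrp2, while at Cubn the regions at -4.5 and +2.2 kb stood above the others, and at Amn the region at -2.9 kb was the highest at 8 h.

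GATA6 was higher at part of these regions at 8 h than at day 0, a count that depended on the scaling. From day 0 to 8 h, GATA6 was higher past a fold of 2 at 30 of the 60 regions, with 7 at Dab2, 11 at Lrp2, 9 at Cubn and 3 at Amn, where 61.1% of all regions were higher. The median log2 change was 0.985, against 1.42 over the whole table, a smaller median gain than that of all regions. By edgeR, 24 of the 59 that could be fitted were higher and none lower at an adjusted p under 0.05, where 50.9% of the table was higher, with 25 higher and 0 lower at an unadjusted p under 0.05. The day 0 group of this test is 1 library, so that its spread was taken from the 8 h libraries. This call rests on how libraries are scaled: with TMM factors, 3 were higher (Cubn +2.2 kb, Lrp2 +184.2 kb and Amn -2.9 kb) and 5 lower, and the table went to 8.28% higher and 4.82% lower. With the median change of all regions subtracted, 12 were higher and 20 lower, and with a pseudocount 10 times larger 15 were higher. A larger pseudocount shrinks the change of every region. TMM factors and the median subtraction both set the typical change near 0. By edgeR the median log2 change over the table was -0.011 with TMM factors and 1.73 without. Neither alternative can show a gain that most regions share. Shares of the table by fold, here and below, belong to the main rule and were not counted under such alternatives.

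From 8 h to day 4, the members at which GATA6 was higher outnumbered those at which it was lower. GATA6 was higher past a fold of 2 at 37 of the 60 regions and lower at 5, where 31.4% of all regions were higher and 35.1% lower. A pseudocount 10 times larger took these counts to 21 and 1. The median log2 change was 1.26 in the windows and -0.02 over the table. Of the 15 regions at Dab2, 10 were higher and none lower, and the count was 15 of 24 at Lrp2, 10 of 17 at Cubn and 2 of 4 at Amn. The edgeR test called 43 of 59 regions higher and 6 lower, where 39.1% of the table was higher and 41.2% lower. With any 1 library left out, which leaves 1 library in its group, fewer members were called higher.

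**Figure D2:**
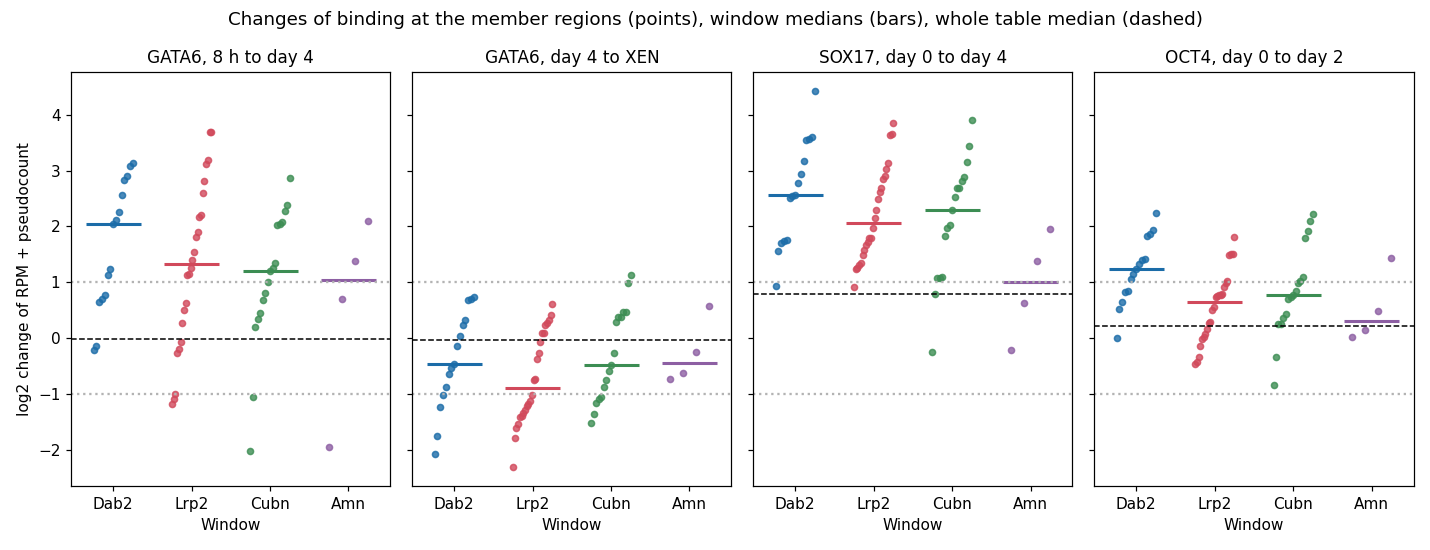
Change of binding at each member region (points) as the difference of log2(RPM + pseudocount), by window, with the window median (bar), the median of the whole table (dashed) and the 2-fold limits (dotted). For GATA6 from 8 h to day 4 the window medians lay between 1.04 and 2.04 with the table near 0, and for SOX17 from day 0 to day 4 between 1.01 and 2.56.

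In XEN cells, GATA6 was lower than at day 4 at part of these regions. From day 4 to XEN cells, GATA6 was higher past a fold of 2 at 1 region (Cubn -81.9 kb) and lower at 21, where 14.8% of all regions were higher and 12.3% lower. With a pseudocount 10 times larger, 7 were lower. The lower regions were 4 at Dab2, 12 at Lrp2 and 5 at Cubn, with none at Amn. By edgeR, 4 were higher (Dab2 -142.2 and +0.2 kb, Cubn -32.5 and -81.9 kb) and 23 lower, where 21.2% of the table was higher and 14.7% lower. Without the deeper XEN library, 1 library was left in that group. The higher calls named here were then lost and fewer lower ones were made. Over the whole table, fewer regions were called in either direction. GATA6 was highest at day 4 in 28 of the 60 regions (46.7%, against 13.9% of the table) and in XEN cells in 19 (31.7%, against 31.8%). At 8 h it was highest in 7 (11.7%), against 31.2% of the table.

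**Figure D3:**
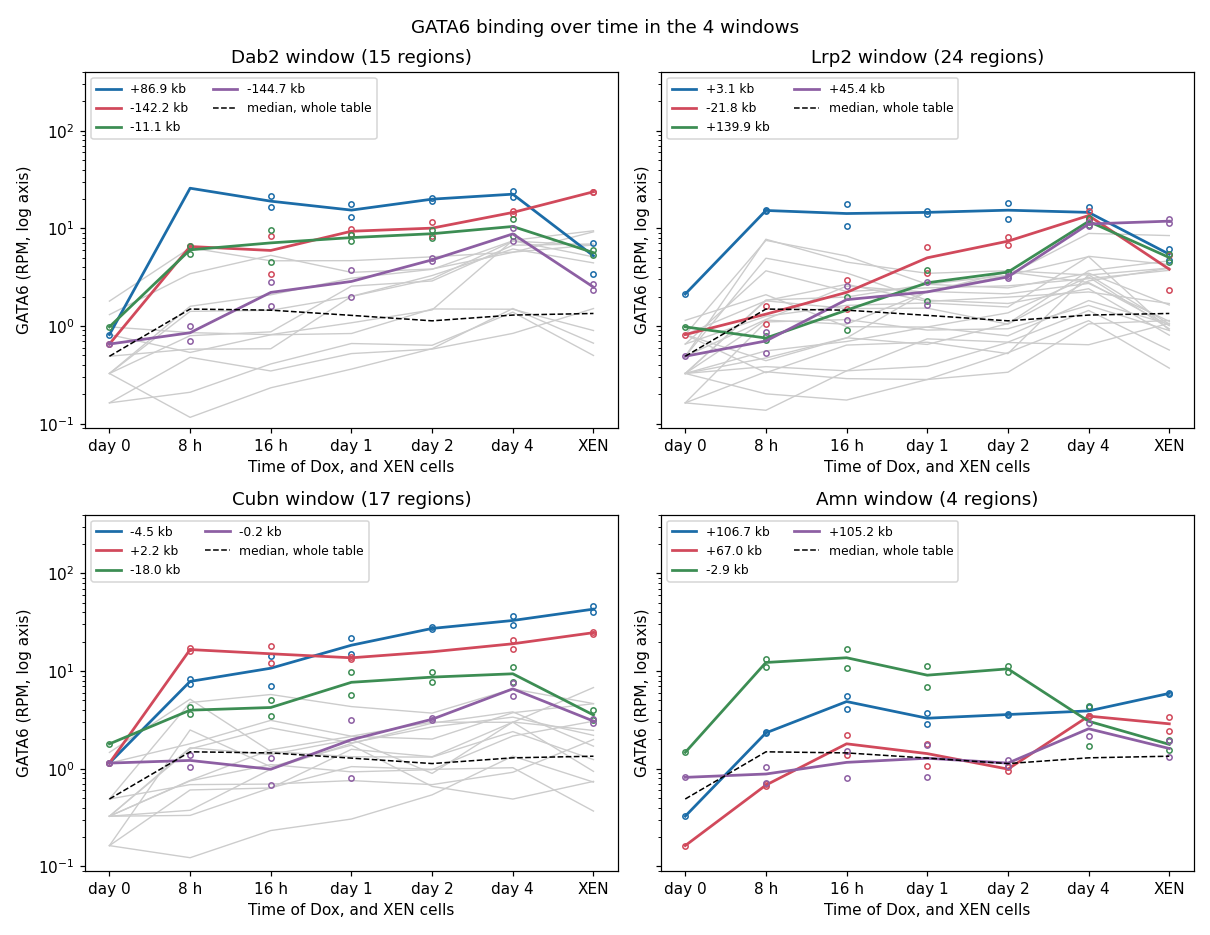
GATA6 RPM (log axis) over the course of Dox and in XEN cells, with the 4 regions of the highest day 4 value in each window in color, the other regions of the window in gray and the median of the whole table dashed. Open circles are the 2 libraries where they could be recovered, and Dab2 +86.9 kb, Lrp2 +3.1 kb and Cubn +2.2 kb were near their day 4 level by 8 h, while Amn -2.9 kb fell after day 2.

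SOX17, an endoderm factor that was itself low on these regions before Dox, was higher at many members by day 4. From day 0 to day 4 it was higher past a fold of 2 at 54 of the 60 regions, where 44.8% of the table was higher, with a median log2 change of 2.22 against 0.797, and at 30 with a pseudocount 10 times larger. The exceptions were Dab2 +62.5 kb, Lrp2 -26.4 kb, Cubn +121.0 and -32.5 kb, and Amn -2.9 and +106.7 kb. The day 0 libraries could not be told apart, so the edgeR test started at 8 h and called 51 of 58 higher by day 4, where 46.9% of the table was higher. With TMM factors, 35 were higher and 1 lower, and the table went to 26.3% higher and 23.9% lower. From day 4 to XEN cells, SOX17 was lower past a fold of 2 at 29 regions, where 17.2% of the table was lower, with a median log2 change of -0.985 against -0.198, and at 15 with the larger pseudocount. By edgeR, 36 of 58 were lower, where 21.6% of the table was lower, and leaving out 1 library at a time gave 20 to 39. With TMM factors the count was 29, and the table went to 16.1% lower and 13.7% higher.

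OCT4 and SOX2 were higher at part of the members by day 2. From day 0 to day 2, OCT4 was higher past a fold of 2 at 22 of the 60 regions and lower at none, where 14.6% of the table was higher, and at 9 with a pseudocount 10 times larger. The regions were 10 of 15 at Dab2, 5 at Lrp2, 6 at Cubn and 1 at Amn. Between 8 h and day 2, edgeR called OCT4 higher at 21 of 53 and lower at 2 (Cubn +121.0 and +93.4 kb), where 21.6% of the table was higher and 15.7% lower. With TMM factors, 18 were higher and 2 lower, with 17.6% and 19.6% of the table, and leaving out either 8 h library left 13 or 14 higher. SOX2 was higher from day 0 to day 2 at 15 regions and lower at 1 (Cubn +121.0 kb), where 6.01% of the table was higher and 6.7% lower, and with the larger pseudocount it was higher at 3. By edgeR from 8 h, SOX2 was higher at 14 of 60, where 9.42% of the table was higher. Without either of the day 2 libraries, 1 library was left in that group, and these calls were lost, as were those over the whole table. ESRRB, another factor of pluripotent cells, was lower past a fold of 2 from day 0 to day 1 at 1 region (Cubn -81.9 kb) and higher at none, where 2.71% of the table was lower. The authors' classes call 24 of the 60 regions (40%) ectopic for the pluripotency factors, that is, gained during differentiation, against 16.6% of the table. Input chromatin, the background of all these values, had medians between 0.505 and 0.721 RPM over the 60 regions in the 7 conditions.

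Around Dab2, regions bound by 8 h and regions bound later were found on both sides of the gene. The strongest region, Dab2 +86.9 kb, lay in an intron of C9 at chr15:6472683-6473897. Its GATA6 level went from 0.817 RPM before Dox to 25.8 at 8 h and 19.0 at 16 h, was 15.4, 19.9 and 22.4 RPM on days 1, 2 and 4, and stood at 5.22 in XEN cells. GATA6 was thus highest at 8 h, lower on day 1 and up again by day 4. The 2 libraries gave 20.7 and 24.0 RPM at day 4 and 3.39 and 7.06 in XEN cells, a log2 change of -2.10 by edgeR (adjusted p = 3.16e-15). OCT4 was already there at day 0 with 10.5 RPM, and its level rose to 26.8 at day 2 and 40.5 at day 4. In XEN cells OCT4 was at 0.267 RPM, which is 2 recovered reads of a single library. SOX17 went from 3.34 RPM before Dox to 31.5 on day 4, with 3.85 in XEN cells. SOX2 stayed between 10.3 and 16.7 RPM from day 0 to day 4 and was at 0.773 in XEN cells, while ESRRB was at 5.09 RPM by 16 h and 1.04 on day 4. The SOX17 and OCT4 changes here, and those of GATA6 from day 0 to 8 h and from 8 h to day 4, carry no test. The reads of a library had more than 1 solution. The SOX2 change from 8 h to day 2 was 0.11 on the log2 scale (edgeR adjusted p = 0.776). GATA6, SOX17, OCT4 and SOX2 were all lower in XEN cells than at day 4. The region held the GATA6, OCT:SOX and SOX17 matches printed above.

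Upstream of Dab2, beyond its outermost annotated start, 4 regions lay between genes. Dab2 -142.2 kb, at chr15:6243953-6245008, bound GATA6 at 6.52 RPM by 8 h against 0.653 at day 0. It then had 5.94 RPM at 16 h, 9.34, 10.1 and 14.5 RPM on days 1, 2 and 4, and 23.7 in each of the XEN libraries. This was one of the few members that were higher in XEN cells than at day 4, by 0.71 on the log2 scale in edgeR (adjusted p = 0.00259), a call that was lost without the deeper XEN library (adjusted p = 0.0622). Dab2 -144.7 kb, its neighbour, started later, with GATA6 at 0.853 RPM by 8 h, 2.86 on day 1, 8.77 on day 4 and then 2.50 in XEN cells. From day 4 to XEN cells it went down by edgeR with a log2 change of -1.79 (adjusted p = 7.15e-09). GATA6 at these neighbours thus moved in opposite directions between day 4 and XEN cells. Dab2 -137.9 kb had the largest OCT4 gain of the window, from 0.432 RPM at day 0 to 2.65 at day 2 and 3.26 at day 4, which could not be fitted, while GATA6 there went from 0.580 RPM by 8 h to 6.15 on day 4.

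Dab2 -126.4 kb, at chr15:6259733-6260526, was the latest of the leading Dab2 regions. GATA6 was between 0.816 and 1.46 RPM from day 0 to day 2, then 7.53 at day 4 and 9.44 in XEN cells. SOX17 was ahead of it, at 2.17 RPM on day 1, 4.30 on day 2 and 18.0 on day 4, with 17.7 in XEN cells. The gain of SOX17 from 8 h to day 4 had a log2 change of 4.98 by edgeR (adjusted p = 3.8e-29), and that of GATA6 3.54 (adjusted p = 6.49e-26). In the authors' scan the region had 3 SOX17, 2 OCT:SOX and 3 ESRRB matches and no GATA6 match. From day 4 to XEN cells, SOX17 and GATA6 changed by -0.03 and 0.33 on the log2 scale, which did not pass (edgeR adjusted p = 0.938 and 0.266).

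At the start of the principal Dab2 transcript, Dab2 +0.2 kb covered a UTR exon at chr15:6386489-6387182. GATA6 was at 1.31 RPM before Dox, 3.43 by 8 h, 5.29 by 16 h, 3.54, 3.84 and 5.68 on days 1, 2 and 4, and 9.21 in XEN cells. Its change from day 0 to 8 h was 1.29 on the log2 scale, and -0.131 after the median change of all regions was subtracted. The rise from day 4 to XEN cells was 0.72 by edgeR (adjusted p = 0.011), and 0.450 was the adjusted p without the deeper XEN library, which was at 11.02 RPM against 7.40 in the other. Dab2 +2.6 and +3.9 kb, near alternative starts of the gene, differed in time: the first had 6.32 RPM at 8 h and 5.71 at day 4, and the second 1.41 and 7.40. SOX17 at Dab2 +3.9 kb went from 0.612 RPM by 8 h to 11.1 on day 4 (edgeR log2 change 4.10, adjusted p = 4.67e-22). Dab2 -11.1 kb, in an intron downstream of the outermost start, had the GATA6 and SOX17 course most like that of the strongest region, with a Pearson correlation of 0.88 over 14 conditions. For the promoter region at +0.2 kb, it was Dab2 -142.2 kb, with 0.94. These correlations describe pooled values of libraries that the regions share.

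**Figure D4:**
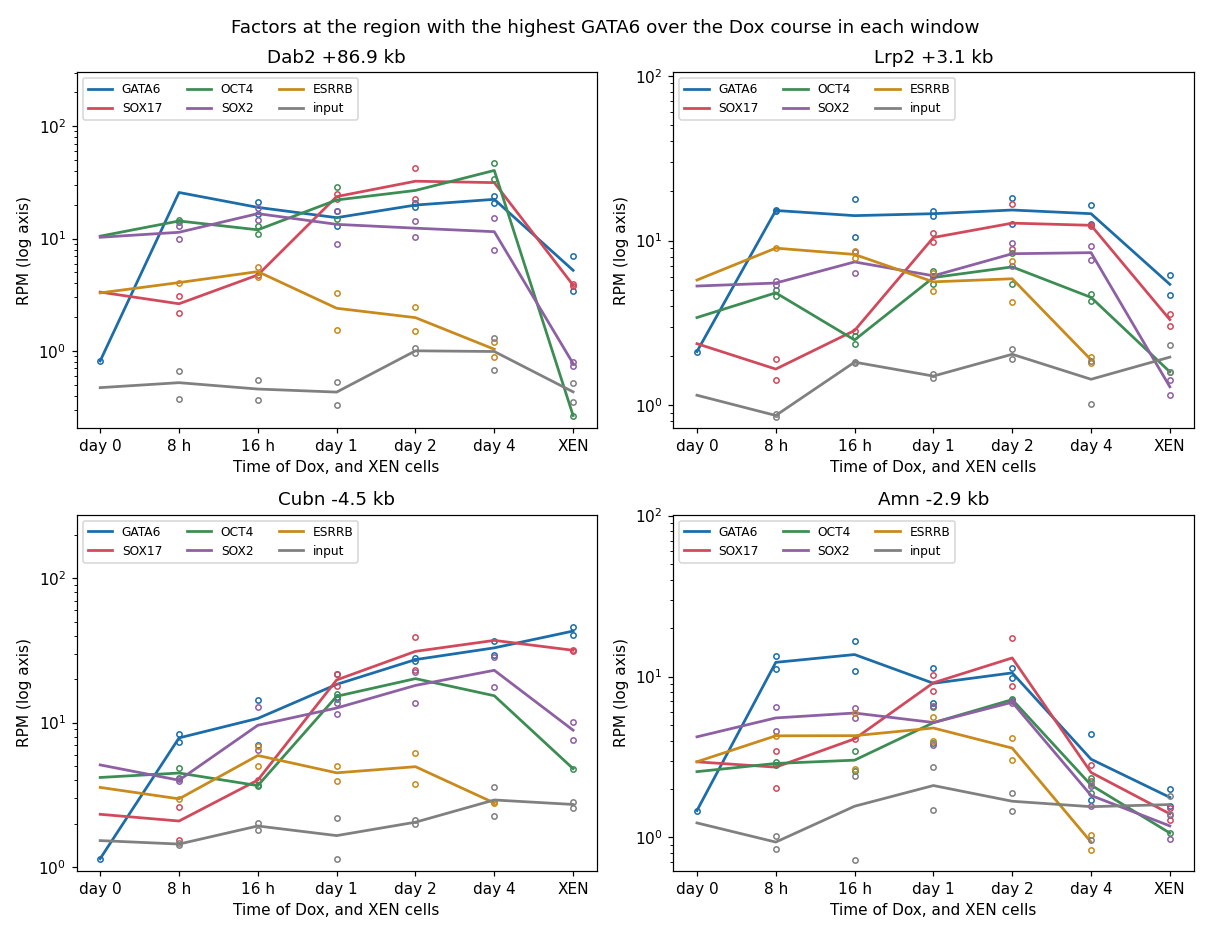
RPM (log axis) of GATA6, SOX17, OCT4, SOX2, ESRRB and input over the course of Dox and in XEN cells, at the region with the highest GATA6 value of the Dox course in each window. Open circles are recovered libraries; OCT4 reached 40.5 RPM at Dab2 +86.9 kb at day 4, GATA6, SOX17, OCT4 (1 library) and SOX2 stayed above input at Cubn -4.5 kb in XEN cells, and GATA6, SOX17, OCT4 and SOX2 were down by day 4 at Amn -2.9 kb.

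The Lrp2 window had the most regions, and GATA6 at its leading ones took different courses. Lrp2 +3.1 kb, in an intron at chr2:69581950-69583490, was the highest at 8 h. GATA6 was at 2.12 RPM before Dox, 15.2 by 8 h, 14.2 by 16 h, 14.6, 15.3 and 14.6 on days 1, 2 and 4, and 5.43 in XEN cells. Its level hardly moved between 8 h and day 4 (edgeR log2 change -0.07, adjusted p = 0.786) and changed by -1.41 on the log2 scale in XEN cells, with libraries at 4.69 and 6.17 RPM against 12.6 and 16.6 (edgeR adjusted p = 6.9e-08). SOX17 was at 1.66 RPM by 8 h, 10.4 on day 1 and 12.4 on day 4, and at 3.32 in XEN cells. Before any Dox, OCT4, SOX2 and ESRRB had 3.42, 5.30 and 5.77 RPM there, against 1.15 for input, and ESRRB was at 1.89 by day 4.

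Upstream of the gene, Lrp2 -21.8 kb, between genes at chr2:69607278-69608480, rose later and was also lower in XEN cells than at day 4. GATA6 was at 0.817 RPM before Dox, 1.32 by 8 h, 2.21 by 16 h, 4.99, 7.39 and 13.5 on days 1, 2 and 4, and 3.81 in XEN cells. GATA6 built up at each time point, with a log2 change from 8 h to day 4 of 3.21 (edgeR adjusted p = 2.06e-27), and then changed by -1.82 in XEN cells (edgeR adjusted p = 9.91e-11). SOX17 rose from 0.716 RPM by 8 h to 14.5 on day 4 and was at 1.22 in XEN cells, the steepest fall of SOX17 in the 4 windows, at -3.56 on the log2 scale (edgeR adjusted p = 8.41e-12). OCT4 and SOX2 rose with it, from 0.997 and 0.907 RPM at day 0 to 6.34 and 9.18 at day 4. Beside the SOX17 and GATA6 matches printed above, the region held 2 OCT:SOX matches. Lrp2 -18.1 kb, its neighbour, went from 0.441 RPM of GATA6 by 8 h to 5.13 on day 4, with 0.905 in XEN cells and day 4 libraries at 3.55 and 6.71.

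Inside the gene, GATA6 at +45.4 and +52.1 kb was close to its day 4 value in XEN cells. Lrp2 +45.4 kb, at chr2:69540199-69541106, had GATA6 at 0.703 RPM by 8 h, 3.18 on day 2, 11.1 on day 4 and 11.8 in XEN cells. SOX17 there was at 0.761, 3.19, 10.5 and 8.20 RPM at the same points. By edgeR the change from day 4 to XEN cells was 0.10 for GATA6 (adjusted p = 0.755) and -0.35 for SOX17 (adjusted p = 0.215). Lrp2 +52.1 kb had GATA6 at 8.88 RPM at day 4 and 8.43 in XEN cells, while SOX17 was at 5.58 and 3.47 RPM (edgeR log2 change -0.70, adjusted p = 0.0349, and 0.205 with TMM factors). Further down, Lrp2 +139.9 kb rose as late but fell back, from 0.753 RPM by 8 h to 11.8 on day 4, then 5.02 in XEN cells, a log2 change of -1.22 at the last step (edgeR adjusted p = 5.13e-06). OCT4 reached 9.79 RPM there at day 4 against 0.771 at day 0. Regions of 1 gene thus parted between day 4 and XEN cells. Near the start, Lrp2 +0.7 kb stayed low, with GATA6 between 1.70 and 2.67 RPM from 8 h on.

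A minority of the Lrp2 regions had their maximum at 8 h. Lrp2 +184.2 kb, in a UTR exon of Dhrs9 past the end of Lrp2, had GATA6 at 7.74 RPM by 8 h, 4.51 by 16 h, 3.33 on day 4 and 3.93 in XEN cells, a fall by 1.18 on the log2 scale from 8 h to day 4 (edgeR adjusted p = 2.57e-05). Lrp2 +55.2 kb, an intron region named after its values were seen, went from 7.53 to 3.48 RPM over the same days.

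The 2 leading Cubn regions flanked the start of the gene, and both had their highest GATA6 value of the course in XEN cells. Cubn -4.5 kb, between genes at chr2:13495414-13498310, had GATA6 at 1.14 RPM before Dox, 7.84 by 8 h, 10.7 by 16 h, 18.4, 27.3 and 33.0 on days 1, 2 and 4, and 43.1 in XEN cells. The level was higher at each successive time point, and the XEN value was the highest of the 60 regions in the Dox course and XEN cells. At 2897 bp the region was also the widest of the 60, where the median was 774 bp, and RPM is not scaled to width. The libraries were at 7.30 and 8.38 RPM by 8 h, 29.4 and 36.5 on day 4, and 45.9 and 40.3 in XEN cells. From 8 h to day 4 the log2 change was 2.09 by edgeR (adjusted p = 1.02e-15), while the difference of 0.39 between day 4 and XEN cells did not pass (adjusted p = 0.0966) and passed with TMM factors (adjusted p = 0.0239). SOX17 went from 2.32 RPM before Dox to 19.8 on day 1 and 37.1 on day 4, with 31.7 in XEN cells. OCT4 went from 4.17 RPM at day 0 to 20.2 at day 2 and 15.4 at day 4, and SOX2 from 5.10 to 18.1 and 23.1. In XEN cells OCT4 was at 4.80 RPM in its single library and SOX2 at 8.87, with input at 2.71. The GATA6 and SOX17 matches of this region lay side by side at the summit, and it held 12 OCT:SOX matches.

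Cubn +2.2 kb, in an intron at chr2:13488626-13490208, was as early as the Dab2 and Lrp2 regions that led at 8 h, and was at its highest in XEN cells. GATA6 was at 1.14 RPM before Dox, 16.6 by 8 h, 15.0 by 16 h, 13.7, 15.8 and 19.0 on days 1, 2 and 4, and 24.7 in XEN cells. From 8 h to day 4 its change was 0.19 (edgeR adjusted p = 0.467) and from day 4 to XEN cells 0.39 (edgeR adjusted p = 0.117). SOX17 went from 2.34 RPM by 8 h to 24.98 on day 4, with 20.3 in XEN cells. Over 14 conditions of GATA6 and SOX17 its course correlated with that of Cubn -4.5 kb at 0.95.

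Other Cubn regions differed in when GATA6 rose and in its level in XEN cells. Cubn -0.2 kb, at the start of the gene at chr2:13491578-13492558, had GATA6 at 1.14 RPM before Dox, 1.22 by 8 h, 0.988 by 16 h, 1.98, 3.21 and 6.58 on days 1, 2 and 4, and 3.08 in XEN cells. Its start was thus nearly free of GATA6 at 8 h, when the regions on both sides were bound. From day 4 to XEN cells it changed by -1.08 (edgeR adjusted p = 0.000586). OCT4 at this start went from 0.973 RPM at day 0 to 4.17 at day 2 and 6.42 at day 4, and its change from 8 h to day 2 was 2.15 (edgeR adjusted p = 8.95e-08). Cubn -18.0 kb, in a UTR exon of Trdmt1, which encodes an RNA methyltransferase, had GATA6 at 3.98 RPM by 8 h, 7.68 on day 1, 9.38 on day 4 and 3.55 in XEN cells. Its change from day 0 to 8 h was 1.08 on the log2 scale, and -0.341 after the median change of all regions was subtracted. Cubn +9.3 kb was lower, with 0.376 RPM at 8 h, 3.82 on day 4 and 1.70 in XEN cells. At Cubn -31.9, -32.5 and -35.4 kb, named after their values were seen, GATA6 was at 0.752, 0.688 and 0.759 RPM by 8 h, 2.16, 0.920 and 3.75 on day 4, and 3.07, 1.99 and 4.63 in XEN cells. Of these, Cubn -32.5 kb was called higher in XEN cells than at day 4 (edgeR log2 change 1.02, adjusted p = 0.034), a call that was lost without the deeper XEN library. Cubn +121.0 kb, named after its values were seen, had OCT4 and SOX2 at day 0 and less of both at day 2. OCT4 went from 5.42 RPM at day 0 to 2.96 at day 2, SOX2 from 7.45 to 3.55, and GATA6 from 5.16 at 8 h to 2.40 at day 4.

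At Amn, 1 region lay near the gene. Amn -2.9 kb, between genes at chr12:111267544-111268564, had GATA6 at 1.47 RPM before Dox, 12.2 by 8 h, 13.7 by 16 h, 9.08, 10.5 and 3.07 on days 1, 2 and 4, and 1.78 in XEN cells. GATA6 was thus present for 2 days and down at day 4, when the leading regions of the other 3 genes were at or near the height of their Dox course. The 8 h libraries were at 13.4 and 11.1 RPM and those of day 4 at 1.72 and 4.41, and the log2 change was -2.09 (edgeR adjusted p = 4.75e-13). SOX17 went from 2.74 RPM by 8 h to 13.1 on day 2 and 2.54 at day 4, with 17.3 and 8.78 in the day 2 libraries. OCT4 was at 2.56 RPM before Dox, 7.19 on day 2 and 2.12 on day 4, and its change from 8 h to day 2 was 1.31 (edgeR adjusted p = 3.98e-06). SOX2 was at 4.22, 6.92 and 1.83 RPM at day 0, day 2 and day 4, and ESRRB at 2.96, 3.59 and 0.937. All 5 factors were thus lower at day 4 than at day 2, while input was at 1.68 and 1.55 RPM. The other 3 regions of the window lay in introns of Cdc42bpb, which encodes a kinase, at +67.0 and +105.2 kb, and 67 bp from its start at +106.7 kb. Their GATA6 level at day 4 was 3.46, 2.57 and 3.91 RPM, and that in XEN cells 2.88, 1.61 and 5.92. From day 0 to 8 h, Amn +67.0 kb changed by 1.36 on the log2 scale, and by -0.062 after the median change of all regions was subtracted.

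With Oct4 siRNA, GATA6 binding at day 2 was higher at some members and lower at others, and Lrp2 held most of the higher ones. The log2 difference to control siRNA was above 0.5 at 19 of the 60 regions and below -0.5 at 10, where 22.3% and 21.6% of the table lay. At Lrp2, 12 of 24 were higher and 2 lower, and at Dab2 3 and 3 of 15. By edgeR, 5 were higher and 1 lower, where 6.06% of the table was higher and 3.66% lower, with 13 and 4 at an unadjusted p under 0.05. With TMM factors, 14 were higher and 8 lower, and the table went to 14.4% higher and 11.8% lower. Leaving out 1 library at a time gave 1 to 6 higher, the lowest without the deeper control library. These regions are named here because they are few: Dab2 -126.4 kb, Lrp2 -43.6, +42.4, +43.7 and +163.8 kb, and the lower one Cubn +93.4 kb. GATA6 at Lrp2 -43.6 kb was at 1.22 and 1.55 RPM in the control libraries and 5.26 and 8.76 with Oct4 siRNA (edgeR log2 difference 2.31, adjusted p = 1.67e-06), and this was the only one of the 6 to pass without each library in turn. Dab2 -126.4 kb was at 1.96 and 2.63 RPM with control siRNA and 6.71 and 6.37 with Oct4 siRNA (edgeR log2 difference 1.52, adjusted p = 0.00196), and its highest adjusted p without 1 library was 0.108. SOX17 at this region was at 5.02 and 5.26 RPM against 11.1 and 20.97, which did not pass (edgeR adjusted p = 0.108) but passed with TMM factors (adjusted p = 1.19e-06). Amn -2.9 kb had GATA6 at 14.2 and 14.4 RPM against 7.36 and 10.1, a log2 difference of -0.74 that did not pass (edgeR adjusted p = 0.144). It passed with TMM factors (adjusted p = 1.35e-05). The leading regions Dab2 +86.9 kb and Cubn -4.5 kb had 46.4 and 40.5 RPM with control siRNA and 40.8 and 41.3 with Oct4 siRNA. The edgeR test did not call either (adjusted p = 0.801 and 0.978). On simulated data, this test of GATA6 recovered 20% of 2-fold and 96% of 4-fold changes.

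SOX17 under Oct4 siRNA was shifted over the whole table, by a median of 0.526 on the log2 scale. Its difference was above 0.5 at 35 of the 60 members, where 51.8% of the table lay, and at 18 after that median was subtracted, when 4 were below -0.5. With a pseudocount 10 times larger, 21 were above 0.5. By edgeR, 2 were higher, Lrp2 +43.7 and +163.8 kb, where 1.87% of the table was higher, with 14 at an unadjusted p under 0.05. Without either control library these calls were lost, here and over the whole table. Without either Oct4 siRNA library more regions were called higher, again here and over the whole table. Each of these fits leaves 1 library in a group. The edgeR median log2 difference over the table was 0.997 without the deeper Oct4 siRNA library, 0.125 without the other and 0.601 with both. The size of the shift thus differed between the 2 Oct4 siRNA libraries. With TMM factors, 8 members were higher and 4 lower, with 8.03% and 6.73% of the table. On simulated data, the edgeR test of SOX17 under siRNA recovered 2% of 2-fold and 54% of 4-fold changes. At Lrp2 +43.7 kb, SOX17 was at 0.167 and 0.258 RPM in the control libraries and 1.77 and 2.33 with Oct4 siRNA, and GATA6 at 1.25 in both against 2.83 and 4.28.

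**Figure D5:**
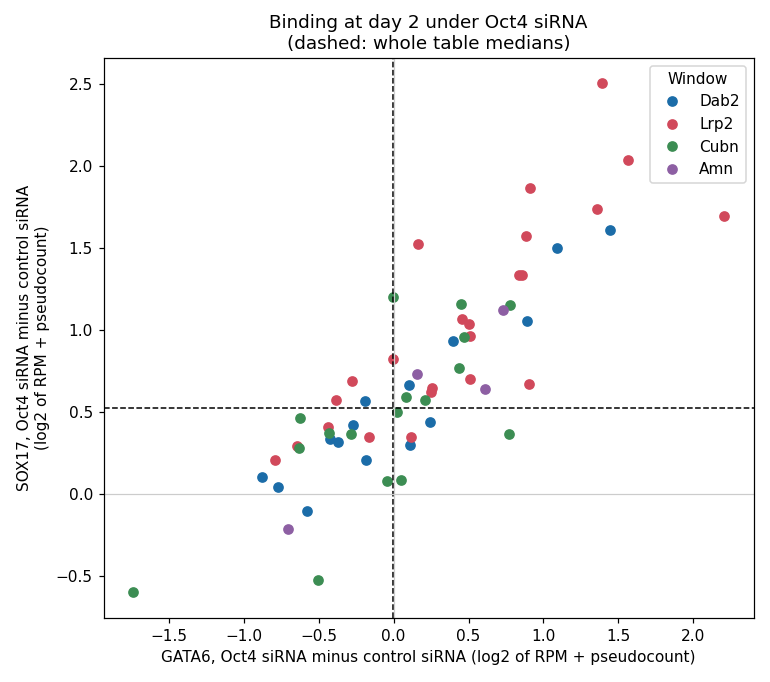
Difference between Oct4 siRNA and control siRNA at day 2 for each member region, for GATA6 (horizontal) and SOX17 (vertical), both as log2(RPM + pseudocount), with window by color and the medians of the whole table dashed. Most points lie above 0 for SOX17, as does the table median of 0.526, and the points farthest to the upper right are Lrp2 regions and Dab2 -126.4 kb.

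Other genes of the same pathway were taken with the regions up to 50 kb on either side. From 8 h to day 4, GATA6 was higher past a fold of 2 at 4 of 6 regions around Lrpap1, the chaperone of megalin in the endoplasmic reticulum, and lower at 1, against the 31.4% and 35.1% of the table. For the clathrin coat (Cltc, Clta and the subunits of the AP2 adaptor), 23 of 51 were higher and 4 lower, and for recycling and endosomes (Rab5a, Rab11a, Ehd1, Clcn5, Ocrl and Ctns) 19 of 43 were higher and 9 lower. The genes differed within a group: around Cltc, the clathrin heavy chain, 15 of 20 regions were higher, and around Ocrl, a lipid phosphatase of the endosome, none was higher and 4 of 6 were lower. From day 4 to XEN cells, the lower regions were 2 around Lrpap1, 9 for the coat and 7 for recycling, and the higher ones 0, 0 and 4, where 12.3% of the table was lower and 14.8% higher. The median GATA6 level at day 4 was 3.15 RPM for Lrpap1, 2.39 for the coat and 1.85 for recycling, against 3.36 in the 4 windows and 1.29 over the table. Regions of the 4 windows were wider than those of the table, at medians of 774 and 525 bp, and the part of width in these levels was not tested.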

How the data were processed

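The authors trimmed ChIP-seq reads with cutadapt, aligned them to mm10 with Bowtie2, removed duplicates by molecular identifiers, called peaks with MACS2 and counted reads on each GATA6 region. The deposited values are RPM, reads scaled to the size of the library, with the libraries of a condition pooled into 1 of 45 columns, and 96 libraries in 47 conditions were labelled. Motif matches are the authors' FIMO scan and its score. The region classes are deposited as text by the authors, and the column of the authors' own siRNA outcome was not used, nor were 14 columns of values with no sample here.

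Changes are differences of log2(RPM + pseudocount). The pseudocount was percentile 5 of the values of a factor, 0.168 for GATA6, 0.1818 for SOX17, 0.1673 for OCT4, 0.1947 for SOX2 and 0.1635 for ESRRB. Calls were a fold of 2 over time and a log2 difference of 0.5 for siRNA. Pooled columns allow no test. Chosen after seeing the data, whole reads were recovered from the RPM steps, with 100% of values whole: 36 columns gave 2 depths, 4 gave 1 and 5 of day 0 could not be resolved. Of 2160 member values in columns of 2 depths, 2147 had 1 solution, and regions without one were left out of that fit. Tests were edgeR 4.0.16 (R 4.3.3), quasi-likelihood, on library sizes as recovered. Benjamini-Hochberg adjustment ran over all regions, with a threshold of 0.05. On simulated data, 2-fold changes were recovered at 2% (SOX17, siRNA) to 50% (SOX17, day 4 to XEN) of changed regions. For 4-fold changes the range was 54% to 100%. GATA6 from day 0 to 8 h was at 8% and 80%, and GATA6 under siRNA at 20% and 96%. A 2-fold change can thus go uncalled. Tables were handled in Python 3.11.15 with pandas 2.3.3, and sequences read with pysam 0.24.0.

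Regions named were those within 1 kb of a gene start, the 5 highest in GATA6 at day 4, and the 2 highest in GATA6 at 8 h, in SOX17 at day 4 and in OCT4 gain, per window. Members and lists were chosen with earlier results of these data known. Some genes of the pathway list, and the groups that held them, are not reported here.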

Additional observations from a re-analysis of the deposited data

How the results depend on the processing

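Counts of member regions are given per alternative, and the cause of a shift was not tested. The share of the whole table was not counted for the pseudocount, input and median alternatives. With the pseudocount 10 times larger, GATA6 was higher at 15 (day 0 to 8 h) and at 21 and lower at 1 (8 h to day 4), and lower at 7 (day 4 to XEN). SOX17 was then higher at 30 (day 0 to day 4) and 29 (8 h to day 4) and lower at 15 (day 4 to XEN). OCT4 was higher at 9 (from day 0) and 8 (from 8 h), SOX2 at 3 from either start, and ESRRB lower at 0. Under siRNA, GATA6 was lower at 3 and SOX17 higher at 21. ESRRB was lower at 2 with a pseudocount 10 times smaller or with the input change subtracted. With the median change of all regions subtracted, GATA6 was higher at 12 (day 0 to 8 h) and SOX17 under siRNA at 18. The first change reversed at Dab2 +0.2 kb (-0.131), Cubn -18.0 kb (-0.341) and Amn +67.0 kb (-0.062). This subtraction takes away a gain that most regions share. Among the 40 regions above the median of the highest GATA6 value, GATA6 was higher at 24 (8 h to day 4) and lower at 4 under siRNA, and SOX17 lower at 18 (day 4 to XEN).

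The edgeR test on recovered reads called GATA6 under siRNA higher at 5 and lower at 1, and SOX17 higher at 2. With 1 read taken off each, in case 1 had been added, these were 6, 1 and 3. For GATA6 from day 0 to 8 h, the edgeR median log2 change over the table then went from 1.73 to 2.72. With TMM factors, the higher counts were 3 (GATA6, day 0 to 8 h), 14, with 8 lower (GATA6, siRNA), 8 (SOX17, siRNA), 35 (SOX17, 8 h to day 4) and 23 (SOX2, 8 h to day 2). Leaving out 1 library at a time gave 13 to 24 lower for GATA6 from day 4 to XEN (13 without the deeper XEN library), 13 to 26 higher for OCT4 (13 and 14 without the 8 h libraries) and 0 to 12 for SOX2 (0 without either day 2 library, 7 without the deeper 8 h library). Under siRNA, higher calls for GATA6 were fewest without the deeper control library. Those for SOX17 were lost without either control library and more numerous without either Oct4 siRNA library, as over the whole table. GATA6 from day 0 to 8 h could not be fitted without a library, as no residual degrees of freedom were left. Of 145 counts over all alternatives, 97 stayed within 1.5 times. Named calls at Dab2 +0.2 and -11.1 kb and Amn +106.7 kb (GATA6, 8 h to day 4) were lost without 1 library.

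No paired analysis was possible because the columns carry no replicate numbers, and the recovered libraries are known only by depth. GATA6 at day 0 and OCT4 in XEN cells rest on 1 library each. The depth of the other factors at day 0 is not known, and both points limit changes from day 0. Whether the single depths of ESRRB at 8 h and SOX17 at 16 h stand for 1 or 2 libraries is not known.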
